A study of Bos indicus and Bos taurus with 17 samples.

Results

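The genes described here are the survival members of the BCL2 family (BCL2A1, MCL1, BCL2L1 and BCL2), its death members (BAX, BAK1, BAD and BCL2L11) and the death receptor gene FAS. They were chosen by name, as members of 1 pathway, by a rule that used no measured value. Earlier results of these data were known when they were chosen. Of the 9 genes, 8 were found among 21631 distinct gene names, in 10 entries, because BCL2A1 and BCL2 each had 2 entries. MCL1 was not analysed here. Expression was measured by RNA sequencing of cells that were captured from cow's milk on magnetic beads carrying an antibody to keratin 18 (KRT18), a protein of epithelial cells. Kashmiri cattle, a local breed of northern India, were compared with Jersey cattle, a dairy breed, at day 15 (D15), day 90 (D90) and day 250 (D250) in milk, that is, in early, mid and late lactation. The labels named 17 samples, 3 in each group but Jersey at D90, which had 2, from cows in lactation 2 or 3. In the labels, lactation number was not balanced over the groups. The paper instead describes 3 cows of each breed, all in lactation 3 and sampled on each of the 3 days. The labels do not link samples to cows. All 3 Jersey samples at D250 and all 3 Kashmiri samples at D90 were of lactation 2. In Kashmiri at D250, 2 samples were of lactation 3 and 1 of lactation 2. The part of lactation number in the contrasts was not tested. All samples of 1 day carried the same month, March for D15, July for D90 and December for D250, so day and season cannot be told apart.

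The deposited values are in FPKM, a count of sequenced fragments divided by transcript length and by the mapped reads of a library. FPKM can be compared between genes within a group. Between groups it also depends on the scaling. The FPKM summed over all names ran from 490166 in Kashmiri at D250 to 969227 in Kashmiri at D15. Each combination of breed and day, 6 groups in all, had 1 deposited value. Without values for each cow there was no replicate error and no test, and a single cow could carry a group value. Whether neighbouring levels differ beyond the spread between cows therefore cannot be said for any gene, and "higher" or "lower" below orders group values only. Read depth behind a value was also unknown, and no interval is given.

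The BCL2 family decides whether a cell keeps its mitochondria intact. The pore formers BAX and BAK1 open the outer mitochondrial membrane, which releases cytochrome c and starts the caspase cascade. The survival proteins BCL2, BCL-XL (from BCL2L1), MCL1 and A1 (from BCL2A1) hold them in check, and the BH3-only proteins, such as BAD and BIM (from BCL2L11), bind the survival proteins or the pore formers and push towards death. FAS is a receptor at the cell surface that, when bound by its ligand, assembles FADD and caspase 8 into a death-inducing complex. Apoptosis of secretory epithelium is part of involution after milking ends, to a smaller extent in dairy cows than in rodents, and the ratio of BAX to BCL-XL or BCL2 is often followed in that process. A1 and FAS are also known from blood neutrophils, and BCL2 from lymphocytes, which milk contains as well.

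In Jersey cattle BCL2A1 and FAS were far above their Kashmiri levels on every day, and the gap widened from D15 to D250. BCL2L1 and BCL2L11 were also higher in Jersey on each day, by smaller folds, while BCL2 was lower. BAX was most different at D15, and the direction of BAD and BAK1 between the breeds changed with the day. In Kashmiri cattle the 8 genes each stayed within a 2.86-fold range over lactation, as deposited.

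**Figure D1:**
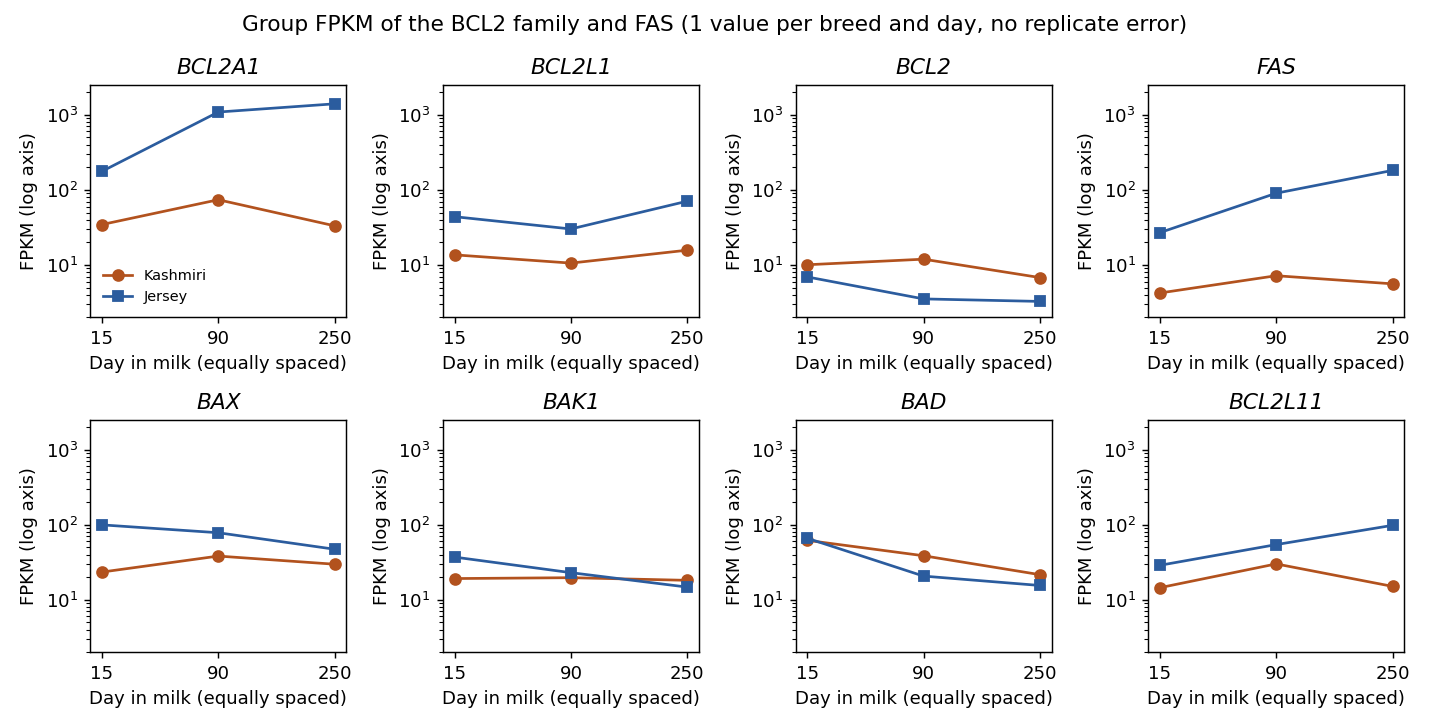
Authors' group FPKM (log axis) of the 8 genes at days 15, 90 and 250 in milk, with circles for Kashmiri and squares for Jersey, and no error bars because each point is 1 value. The Jersey line of BCL2A1 climbs from 177 to 1401 FPKM and that of FAS from 27.0 to 182 FPKM, while the Kashmiri lines of the same genes stay between 33.2 and 74.0 FPKM and between 4.24 and 7.20 FPKM.

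BCL2A1 encodes A1, a short-lived survival protein of blood cells that is a classical target of NF-kB. In its main entry, the Kashmiri level was 34.6, 74.0 and 33.2 FPKM at D15, D90 and D250, respectively. In Jersey cattle it was 177, 1089 and 1401 FPKM at D15, D90 and D250. All 3 Jersey values lay above all 3 Kashmiri values. The Jersey level was 5.11-fold the Kashmiri level at D15, rising to 14.7-fold at D90 and to 42.2-fold by D250. Within Jersey, the D90 level was 6.16-fold and the D250 level 7.93-fold that of D15. In this entry, most of the Jersey climb thus lay between D15 and D90, since D250 was only 1.29-fold D90. This last step changed its sign when FPKM were rescaled to the sum without milk protein genes (log2 ratio 0.36 as deposited, -0.05 rescaled). Among names with at least 1 FPKM, BCL2A1 ranked 94 of 10596 in Jersey at D250, against 1743 of 11038 in Kashmiri.

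The second BCL2A1 entry was much lower and had a similar order of groups. It stood at 0.546, 0.696 and 0.623 FPKM in Kashmiri at D15, D90 and D250, and at 3.82, 30.1 and 136 FPKM in Jersey. Its Jersey level thus rose steeply from D90 to D250 as well, where the main entry changed little. The folds given above are of the main entry. Its share of both entries was between 0.932% and 1.84% in Kashmiri, and in Jersey it was 2.12%, 2.69% and 8.84% at D15, D90 and D250. The source does not say how the entries differ, and reads that match both could have been split between them.

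BCL2L1 encodes BCL-XL, a survival protein of many cell types, red cell precursors and epithelium among them. In Kashmiri cattle, on the days in order, it was at 13.7, 10.6 and 15.8 FPKM. In Jersey cattle it was at 44.0, 30.2 and 70.8 FPKM. Both breeds had their lowest value at D90 and their highest at D250, with Jersey 3.22-fold, 2.85-fold and 4.49-fold above Kashmiri at D15, D90 and D250.

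BCL2, the founding survival gene of the family, was the only 1 of the 8 genes with a lower value in Jersey on all 3 days, as deposited. Its main entry read 10.1, 11.95 and 6.80 FPKM in Kashmiri at D15, D90 and D250, and 6.94, 3.54 and 3.27 FPKM in Jersey. The breeds overlapped, as Jersey at D15 was just above Kashmiri at D250. Jersey was 1.45-fold lower at D15, 3.38-fold lower at D90 and 2.08-fold lower at D250. The second BCL2 entry held between 20.2% and 44.5% of both entries, with 2.55, 9.60 and 3.78 FPKM in Kashmiri and 2.25, 2.69 and 1.21 FPKM in Jersey, so its highest value was also Kashmiri at D90. BCL2L1 exceeded BCL2 in 5 of 6 groups, by 1.36-fold in Kashmiri at D15, 2.32-fold in Kashmiri at D250 and 6.34-fold, 8.54-fold and 21.6-fold in Jersey at D15, D90 and D250. The exception was Kashmiri at D90, where BCL2L1 was at 0.887 of BCL2.

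BAX and BAK1, the pore formers, did not follow the survival genes. BAX read 23.4, 38.2 and 29.7 FPKM in Kashmiri at D15, D90 and D250, and 99.4, 78.1 and 47.1 FPKM in Jersey. Every Jersey value was above every Kashmiri value, but the fold narrowed with the day, from 4.25 at D15 to 2.04 at D90 and 1.58 at D250. At D250 the direction depended on the scaling, because the log2 ratio of 0.65 became -0.10 when FPKM were rescaled to the sum without milk protein genes. From D15 to D250, BAX was 2.11-fold lower in Jersey and 1.27-fold higher in Kashmiri.

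BAK1 was the flattest gene in Kashmiri, with 19.2, 19.7 and 18.1 FPKM at D15, D90 and D250, so its highest value was 1.08-fold its lowest as deposited. Rescaled to the sum without milk protein genes, its log2 ratio of D250 over D15 was 0.89 in place of -0.07. In Jersey it read 37.0, 22.9 and 14.7 FPKM, which is 2.51-fold lower at D250 than at D15. Jersey thus began above the Kashmiri range and ended below it. BAX exceeded BAK1 in all 6 groups, by 1.22-fold to 1.94-fold in Kashmiri and by 2.69-fold to 3.40-fold in Jersey.

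The BH3-only genes moved in opposite directions over lactation in Jersey. BAD, whose protein is held inactive by growth factor signalling through phosphorylation, was at 61.8, 38.5 and 21.6 FPKM in Kashmiri at D15, D90 and D250, and at 66.0, 20.7 and 15.5 FPKM in Jersey. It was lower on each later day in both breeds, 2.86-fold from D15 to D250 in Kashmiri and 4.26-fold in Jersey. The breeds were nearly equal at D15, with a Jersey value 1.07-fold the Kashmiri value, a difference whose sign changed with upper-quartile scaling (log2 ratio 0.09 as deposited, -0.03 rescaled).

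BCL2L11 encodes BIM, which sets the lifespan of many blood cells. It read 14.5, 30.0 and 15.1 FPKM in Kashmiri at D15, D90 and D250, and 28.7, 54.2 and 97.9 FPKM in Jersey. Kashmiri peaked at D90 and was near its D15 level at D250 as deposited (log2 ratio 0.05, or 1.00 when rescaled to the sum without milk protein genes), whereas Jersey was higher on each later day, 3.41-fold from D15 to D250. The breed fold was 1.99, 1.81 and 6.50 at D15, D90 and D250. Relative to BAD, BCL2L11 was at 0.234, 0.779 and 0.698 in Kashmiri at D15, D90 and D250, and at 0.436, 2.63 and 6.32 in Jersey, so the order of these BH3-only genes was the reverse of D15 in Jersey at D90 and D250.

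FAS was the lowest of the 8 genes in Kashmiri cattle at each day, with 4.24, 7.20 and 5.61 FPKM from D15 to D250. In Jersey cattle it was at 27.0, 90.3 and 182 FPKM, and passed BAX, BAK1, BAD and BCL2L11 at D90 and D250. The lowest Jersey value was above the highest Kashmiri value. The Jersey level was 6.36-fold, 12.5-fold and 32.4-fold the Kashmiri level at D15, D90 and D250, and within Jersey D250 was 6.74-fold D15. FASN, the fatty acid synthase gene that is also abbreviated FAS in milk research, is a separate entry with another course. FASN read 829, 142 and 639 FPKM in Kashmiri and 188, 9.92 and 228 FPKM in Jersey, with its lowest value in each breed at D90.

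For a count of large differences, a gene was taken as past the fold limit when 1 or both groups reached 1 FPKM and the log2 ratio, after 1 FPKM was added to both values, was 2 or more in size, that is 4-fold. Between days in Kashmiri cattle, 0 of the 8 genes passed. Over all names, 2.34% passed as higher and 5.16% as lower at D90 against D15, 0.859% and 1.12% at D250 against D90, and 1.85% and 2.2% at D250 against D15. A count of 0 among 8 genes is thus near the background.

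In Jersey cattle, BCL2A1 passed as higher at D90 against D15, 1 of 8 genes beside 2.98% of all names, and 0 passed as lower beside 3.78%. From D90 to D250, 0 of 8 passed in either direction, beside 3.72% higher and 0.466% lower. From D15 to D250, BCL2A1 and FAS passed as higher, 2 of 8 beside 9.17% of all names, and BAD passed as lower, 1 of 8 beside 3.42%. BAD stood at a log2 ratio of -2.02, just past the limit, and under the median-ratio scaling it was at -1.97 and did not pass. As deposited, BCL2L11 was next inside it on the higher side at 1.73. These comparisons share groups, so their counts are not independent.

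Between the breeds at D15, BCL2A1, FAS and BAX passed as higher in Jersey, 3 of 8 genes beside 6.45% of all names. BAX was close to the limit, and under upper-quartile scaling its log2 ratio of 1.92 fell short and 2 of 8 passed. At D90 BCL2A1 and FAS passed, 2 of 8 beside 6.58%. At D250 BCL2A1, FAS, BCL2L11 and BCL2L1 passed, 4 of 8 beside 10.9%. When FPKM were rescaled to the sum without milk protein genes, BCL2L11 and BCL2L1 fell short of the limit at D250 and 2 of 8 passed. Under upper-quartile scaling BCL2L1 fell short, at 1.62, and 3 of 8 passed. On each day 0 of 8 passed as lower in Jersey, beside 2.12%, 5.17% and 1.37% of all names at D15, D90 and D250. The median log2 ratio of the 8 genes was 1.28, 0.92 and 1.37 at D15, D90 and D250, against -0.13, -0.03 and -0.10 over all names tested. Ordered by log2 ratio, BCL2A1 ranked 95 and FAS 159 of 11642 names at D250, and 148 and 213 of 11209 names at D90.

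**Figure D2:**
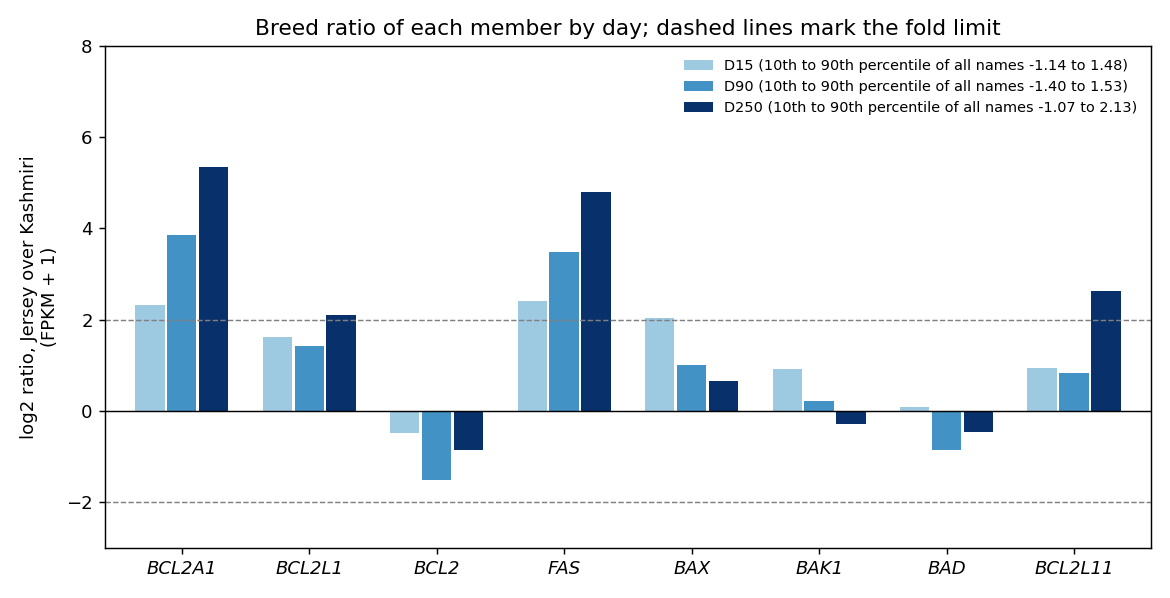
Log2 ratio of Jersey over Kashmiri FPKM, after adding 1 FPKM, for each gene at D15, D90 and D250, with dashed lines at the fold limit and the 10th to 90th percentile of all names in the key. The bars of BCL2A1 reach 2.32, 3.86 and 5.36 and those of FAS 2.42, 3.48 and 4.79, whereas the BCL2 bars are below 0 on all days and the BAX bars shorten from 2.04 to 0.65.

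Over the whole span from D15 to D250, the courses of the breeds differed most for BCL2A1 and FAS. The plain log2 ratio of BCL2A1 was -0.06 in Kashmiri and 2.99 in Jersey, that of FAS was 0.41 and 2.75, and that of BCL2L11 was 0.06 and 1.77. The small Kashmiri value of BCL2A1 turned positive under all 3 other scalings. BAX went the other way, with 0.35 in Kashmiri and -1.08 in Jersey. BCL2L1 and BAD had the same sign in both breeds over this span, at 0.21 and 0.69 for BCL2L1 and at -1.52 and -2.09 for BAD. The difference between the breeds could not be tested for any of them.

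A ratio of genes within 1 group does not depend on how the groups were scaled. The summed FPKM of the survival genes BCL2A1, BCL2L1 and BCL2, divided by that of the death genes BAX, BAK1, BAD and BCL2L11, was 0.491, 0.764 and 0.660 in Kashmiri at D15, D90 and D250. In Jersey it was 0.985, 6.38 and 8.42 at D15, D90 and D250. The survival sum accounted for most of this contrast. It was 58.3, 96.6 and 55.8 FPKM in Kashmiri and 228, 1122 and 1475 FPKM in Jersey, while the death sum was 119, 126 and 84.5 FPKM in Kashmiri and 231, 176 and 175 FPKM in Jersey.

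BCL2A1 carried between 59.3% and 76.6% of the survival sum in Kashmiri, and 77.6%, 97.0% and 95.0% in Jersey at D15, D90 and D250. Without it, the ratio was 0.200, 0.178 and 0.267 in Kashmiri and 0.220, 0.192 and 0.423 in Jersey, so the breeds were close at D15 and D90 and the remaining gap was at D250. MCL1, usually an abundant survival gene, is absent from these sums, so their size is not that of the whole family.

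The pairs used for involution gave a different order. BCL2L1 over BAX was 0.584, 0.278 and 0.530 in Kashmiri at D15, D90 and D250, and 0.443, 0.387 and 1.50 in Jersey. BCL2L1 exceeded BAX in 1 of 6 groups, Jersey at D250. BCL2 over BAX was 0.431, 0.313 and 0.229 in Kashmiri, and 0.0699, 0.0453 and 0.0695 in Jersey, so every Kashmiri value lay above every Jersey value.

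The make-up of the death genes also differed. BAD formed 52.0%, 30.5% and 25.5% of the death sum in Kashmiri at D15, D90 and D250, and 28.5%, 11.7% and 8.84% in Jersey. BCL2L11 formed 12.2%, 23.7% and 17.8% in Kashmiri and 12.4%, 30.8% and 55.9% in Jersey. The leading death gene was BAD in Kashmiri at D15 and D90, BAX in Kashmiri at D250 and in Jersey at D15 and D90, and BCL2L11 in Jersey at D250.

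**Figure D3:**
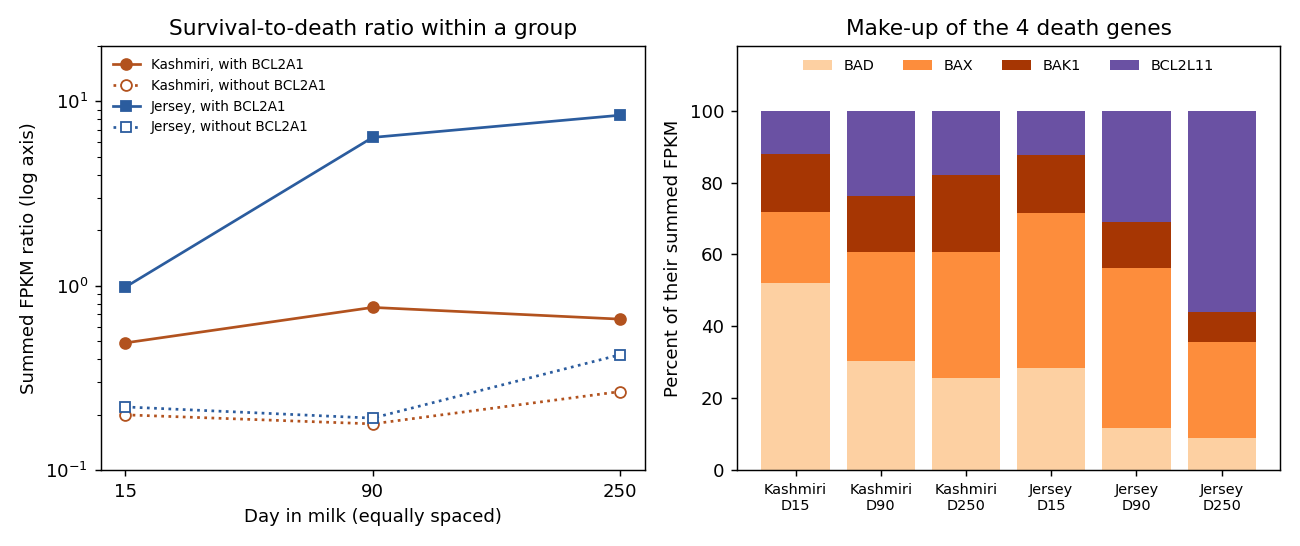
Left, summed FPKM of BCL2A1, BCL2L1 and BCL2 over that of BAX, BAK1, BAD and BCL2L11 (log axis) by day in milk, as filled points with BCL2A1 and open points without it, circles for Kashmiri and squares for Jersey; right, stacked bars with the percent of the death sum held by each death gene in each group. With BCL2A1 the Jersey ratio runs from 0.985 to 8.42 and the Kashmiri ratio from 0.491 to 0.764, and without it all 6 ratios lie between 0.178 and 0.423.

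The rest of the family and of the pathway was described from lists, by counts past the fold limit. List medians are read against all names, whose median between the breeds at D250 was -0.10 as deposited and -0.74 when rescaled to the sum without milk protein genes. Of the other survival genes, BCL2L2, found in an entry joined with BCL2L2-PABPN1, was between 44.9 and 82.9 FPKM in all 6 groups and passed the limit in 0 of 9 comparisons. Of the other death genes, 6 of the 7 found had at least 1 FPKM at D250, and BNIP3 and BNIP3L passed as higher in Jersey, beside 10.9% of all names. Of these, 0 passed under the sum and upper-quartile scalings and BNIP3 alone under the median ratio. Both encode mitochondrial proteins that mark mitochondria for removal by autophagy and are induced by low oxygen. BNIP3 read 19.6, 42.7 and 46.8 FPKM in Kashmiri at D15, D90 and D250, and 86.8, 258 and 263 FPKM in Jersey. BNIP3L read 34.3, 70.3 and 62.0 FPKM in Kashmiri, and 60.5, 203 and 254 FPKM in Jersey.

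BID and BOK had the opposite order, and BMF and BCL2L14 were higher in Jersey on some days and lower on others. BID, the link from death receptors to mitochondria, was at 157, 122 and 47.7 FPKM in Kashmiri, and at 92.6, 30.0 and 35.5 FPKM in Jersey, and so was lower in Jersey on each day. BOK, a relative of BAX, was at 24.5, 11.99 and 7.86 FPKM in Kashmiri, and at 14.3, 2.77 and 2.72 FPKM in Jersey, where it passed the limit as lower at D90 against D15. The median log2 ratio of the other death genes between the breeds at D250 was 0.07, against -0.10 over all names.

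Of 14 genes of death receptor signalling, 4 passed as higher and 0 as lower in Jersey at D250, with a median log2 ratio of 0.56, beside 10.9% and 1.37% of all names. They were TNFRSF1A and TNFRSF1B, the receptors of tumour necrosis factor, LTBR, the lymphotoxin receptor, and RIPK1, the kinase that relays their signal. LTBR and RIPK1 fell short under the sum scaling, and RIPK1 under the upper quartile. TNFRSF1A was at 31.5, 24.0 and 30.3 FPKM in Kashmiri, and at 220, 274 and 851 FPKM in Jersey. TNFRSF1B was at 79.9, 222 and 79.8 FPKM in Kashmiri, and at 206, 396 and 1331 FPKM in Jersey. Like FAS, both receptors were higher in Jersey on each day, with the largest fold at D250. Other receptors of the list went the other way. TNFRSF21 was lower in Jersey on each day, at 34.5, 8.08 and 27.9 FPKM in Kashmiri and 24.8, 7.46 and 16.8 FPKM in Jersey. At D90, 2 genes passed as higher in Jersey and 1 as lower, beside 6.58% and 5.17% of all names. The lower gene was TNFRSF25, at 1.23 FPKM against 8.55 FPKM in Kashmiri, and it fell short under the sum scaling.

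The ligand and the complex under FAS differed less between the breeds than FAS did, and not all in its direction. FASLG, the ligand of FAS on cytotoxic lymphocytes, was at 2.60, 4.42 and 1.89 FPKM in Kashmiri, and at 1.08, 0.704 and 0.815 FPKM in Jersey, and so was lower in Jersey on each day. FADD, the adaptor, was at 146, 47.1 and 39.5 FPKM in Kashmiri and 238, 75.3 and 55.0 FPKM in Jersey. It was higher in Jersey on each day, and lower on each later day in both breeds. CASP8, the initiator caspase, stayed between 9.74 and 24.7 FPKM in all 6 groups, and was higher in Jersey at D90 and D250. CFLAR, the decoy that blocks caspase 8, was at 14.4, 24.1 and 16.1 FPKM in Kashmiri, and at 17.9, 59.7 and 61.0 FPKM in Jersey. Like FAS, it was higher in Jersey on each day, but by smaller folds.

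Downstream of the mitochondria, 0 of the 10 genes of the apoptosome and the executioner caspases passed the limit between the breeds at D15, D90 or D250, beside 6.45%, 6.58% and 10.9% of all names that passed as higher, so that 0 is near the background. Their median log2 ratio was 0.06, -0.05 and 0.20 at D15, D90 and D250. CASP9, the initiator of the apoptosome, had its highest value in Jersey at D250, 12.5 FPKM against 3.55 FPKM in Kashmiri.

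Of the inhibitors of apoptosis, the entry that joins BIRC2 and BIRC3, whose proteins act on tumour necrosis factor receptors, was at 16.0, 45.0 and 37.8 FPKM in Kashmiri, and at 22.6, 418 and 1212 FPKM in Jersey. Its D250 level in Jersey was 53.6-fold that of D15 and 32.1-fold that of Kashmiri. The joined entry cannot be divided between BIRC2 and BIRC3. BIRC5 and BIRC6 stayed under 7 FPKM in all groups.

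**Figure D4:**
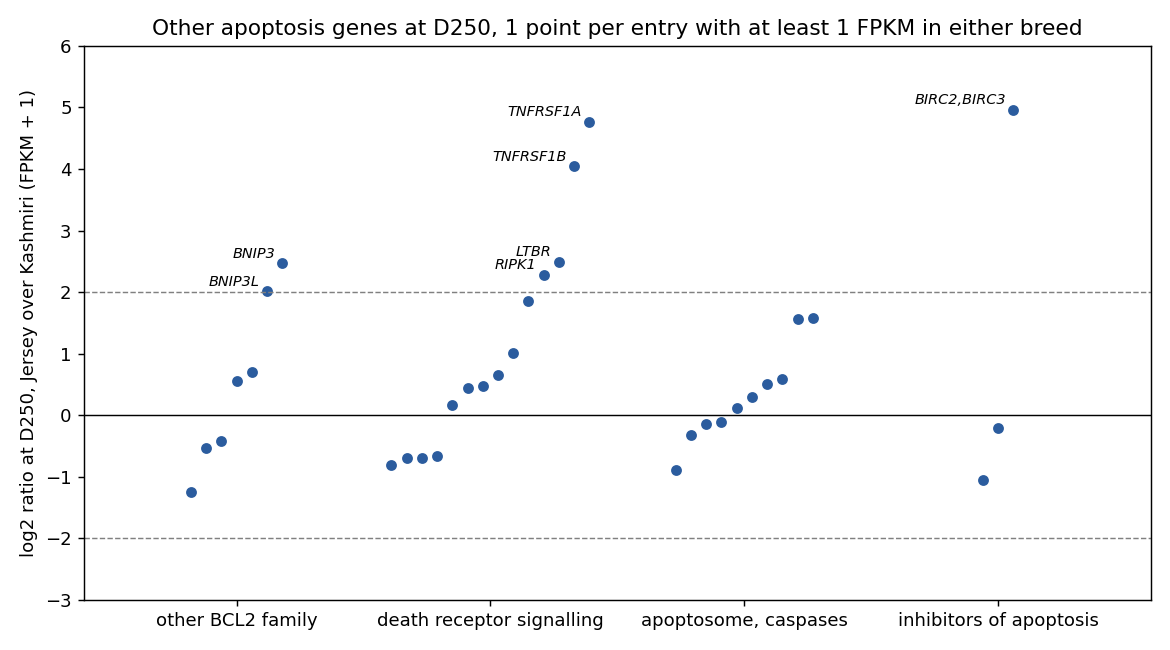
Log2 ratio of Jersey over Kashmiri FPKM at D250, after adding 1 FPKM, with 1 point for each entry of the other apoptosis lists that had at least 1 FPKM in either breed, and dashed lines at the fold limit. BNIP3, BNIP3L, TNFRSF1A, TNFRSF1B, LTBR, RIPK1 and the joined BIRC2 and BIRC3 entry lie above the upper line, 0 points lie below the lower line, and 0 of 10 points of the apoptosome and caspases lie past either.

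Of 11 genes for transcription factors and regulators known to act on the family, 5 passed as higher and 0 as lower in Jersey at D250, beside 10.9% and 1.37% of all names, with a median log2 ratio of 1.61 against -0.10 over all names. The 5 were NFKB1, HIF1A, STAT3, RELA and JUN, of which RELA and JUN fell short under the sum scaling and RELA under the upper quartile. NFKB1, a subunit of NF-kB, was at 12.9, 27.6 and 16.7 FPKM in Kashmiri at D15, D90 and D250, and at 31.7, 182 and 265 FPKM in Jersey. REL, another subunit, was at 2.42, 11.7 and 9.30 FPKM in Kashmiri, and at 3.20, 23.5 and 30.4 FPKM in Jersey. REL passed as higher in Jersey at D90 and D250 against D15, but not between the breeds. HIF1A, a subunit of the oxygen-regulated factor that induces BNIP3, was at 9.72, 18.6 and 35.6 FPKM in Kashmiri, and at 20.3, 159 and 328 FPKM in Jersey.

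Of the genes listed for the turnover of MCL1 protein, TRIB1 and BTRC passed as higher in Jersey at D250, 2 of 7 beside 10.9% of all names. TRIB1, a pseudokinase of myeloid cells, was at 14.5, 13.9 and 19.4 FPKM in Kashmiri and 109, 232 and 666 FPKM in Jersey. TRIB2 went the other way, at 1.95, 12.5 and 4.32 FPKM in Kashmiri and 0.618, 0.649 and 0.560 FPKM in Jersey. It passed as lower in Jersey at D90, 1 of 7 beside 5.17% of all names. At D250 TRIB2 passed as lower only under the sum and upper-quartile scalings. Within Kashmiri it passed as higher at D90 against D15. Of the involution genes, SOCS3, the feedback inhibitor of STAT3, was at 12.2, 16.7 and 9.79 FPKM in Kashmiri, and at 126, 110 and 874 FPKM in Jersey. CTSB, a lysosomal protease, was at 235, 909 and 1006 FPKM in Kashmiri, and at 3772, 4479 and 2019 FPKM in Jersey. LIF and OSMR, which act upstream of STAT3 in the involuting gland, stayed under 4 FPKM in all groups, and IGFBP5, another gene of involution, stayed under 1 FPKM.

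Markers of other cell types moved with these results. KRT18, the target of the capture antibody, was at 51.3, 9.13 and 11.5 FPKM in Kashmiri at D15, D90 and D250, and at 33.7, 1.59 and 4.51 FPKM in Jersey. The 14 epithelial markers were all found, with none at 0 in any group, and summed to 5983, 734 and 2668 FPKM in Kashmiri and 2747, 104 and 1413 FPKM in Jersey. Of 12 neutrophil markers, 9 were found, with none at 0, and they summed to 177, 495 and 615 FPKM in Kashmiri and 4786, 5620 and 13805 FPKM in Jersey. The 8 neutrophil markers with at least 1 FPKM, all but CD177, passed the limit as higher in Jersey on every day. The 10 macrophage markers summed to 109, 483 and 491 FPKM in Kashmiri and 1014, 2145 and 1852 FPKM in Jersey. At D250, of the 9 with at least 1 FPKM, 5 were higher in Jersey and 4 (C1QA, C1QB, C1QC and MSR1) were lower. Only CD14 passed the limit there, beside 10.9% of all names. The 4 general leukocyte markers summed to 493, 1073 and 374 FPKM in Kashmiri and 1325, 867 and 1069 FPKM in Jersey. Their sum was thus lower in Jersey at D90, and PTPRC, 1 of them, was lower at D15 and D90. The 10 T and NK cell markers summed to 394, 1633 and 376 FPKM in Kashmiri, and to 296, 179 and 101 FPKM in Jersey. The labelled epithelial cells thus came with transcripts of white blood cells in all 6 groups, most of all neutrophil transcripts in Jersey. In such bulk samples, fewer cells of a type and less RNA per cell cannot be told apart.

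Over the 6 groups, the log2 level of FAS had a Pearson correlation of 0.95 with the summed neutrophil markers, that of BCL2L1 0.93, that of BCL2A1 0.91 and that of BCL2L11 0.87. The same genes in this order had 0.88, 0.74, 0.87 and 0.83 with the summed macrophage markers, so these correlations are not particular to neutrophil markers. With the T and NK cell markers they had -0.77, -0.84, -0.70 and -0.57. BCL2 had a correlation of 0.90 with the summed T and NK cell markers and of -0.86 with the neutrophil markers. BAX reached 0.77 with both the neutrophil and the macrophage markers, and the correlations largest in size over the 7 marker lists were -0.62 with the macrophage markers for BAD and 0.42 with the general leukocyte markers for BAK1. These are descriptions over 6 points that share libraries and scaling, with 3 points in each breed. The part of other cells in the results above was not tested.

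**Figure D5:**
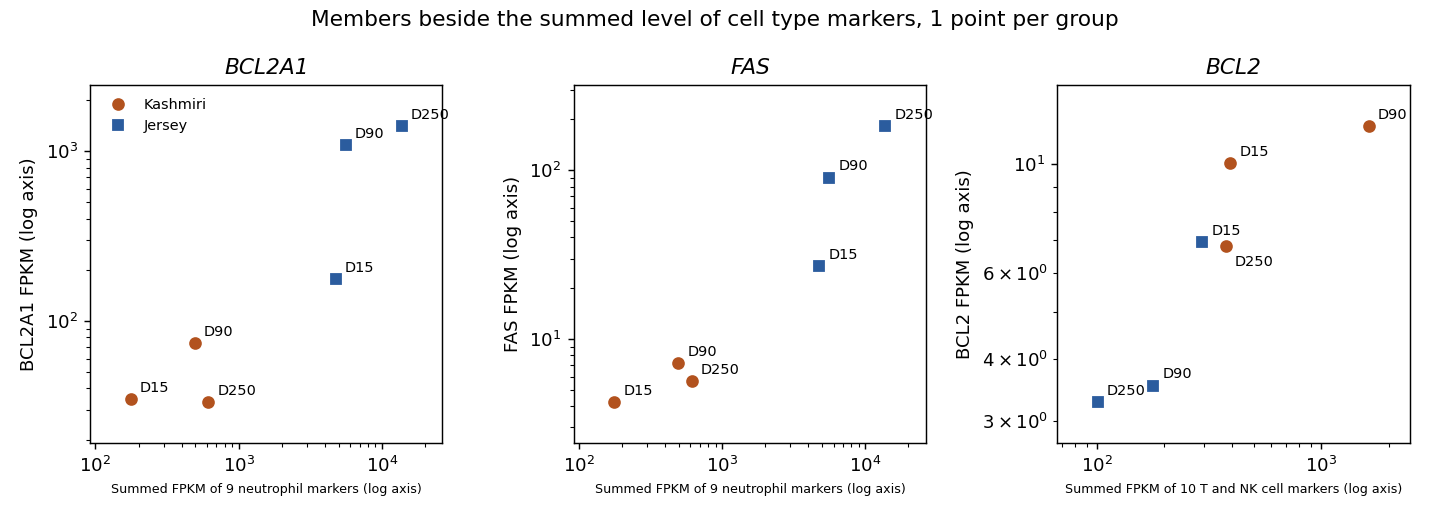
FPKM of BCL2A1 and FAS against the summed FPKM of 9 neutrophil markers, and FPKM of BCL2 against that of 10 T and NK cell markers (all axes log), with 1 point for each breed and day. The 3 Jersey points of BCL2A1 and FAS sit at neutrophil sums of 4786 to 13805 FPKM and the Kashmiri points at 177 to 615 FPKM, while the highest BCL2 point, Kashmiri at D90, also has the highest T and NK cell sum of 1633 FPKM.

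BCL2A1 and FAS were also set against these markers within each group, a comparison chosen after the values were seen. For each 100 FPKM of summed neutrophil markers there were 19.5, 14.9 and 5.40 FPKM of BCL2A1 in Kashmiri at D15, D90 and D250, and 3.69, 19.4 and 10.1 FPKM in Jersey. For FAS the values were 2.39, 1.45 and 0.913 in Kashmiri, and 0.564, 1.61 and 1.32 in Jersey. The breeds overlapped for both genes, with Jersey below Kashmiri at D15 and above it at D90 and D250.

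CSF3R, the receptor of the neutrophil growth factor G-CSF, gave a second scale, from an entry joined with an unnamed gene. For each 100 FPKM of CSF3R there were 64.1, 120 and 58.1 FPKM of BCL2A1 in Kashmiri, and 56.9, 232 and 55.0 FPKM in Jersey. The breeds were thus close at D15 and D250 on this scale, and apart at D90. FAS gave 7.86, 11.7 and 9.82 in Kashmiri, and 8.69, 19.3 and 7.13 in Jersey. On the scale of PTPRC, a general leukocyte marker, the breeds did not overlap. BCL2A1 gave 50.3, 44.5 and 37.8 FPKM for each 100 FPKM in Kashmiri, and 295, 910 and 437 in Jersey. FAS gave 6.17, 4.33 and 6.39 in Kashmiri, and 45.0, 75.5 and 56.8 in Jersey on that scale. PTPRC was the only general leukocyte marker that was lower in Jersey at D15, at 0.873-fold the Kashmiri level. ITGB2, LSP1 and CORO1A were at 3.27-fold, 2.4-fold and 3.25-fold there and were not used as scales. The lack of overlap thus holds for PTPRC only, and the share of all names without overlap on its scale was not computed. On the scale of the summed macrophage markers the breeds overlapped for both genes. There Jersey was below Kashmiri at D15 and above it at D90 and D250.

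The 6 other genes, survival and death genes alike, had all 3 Jersey values below all 3 Kashmiri values on the scale of the summed neutrophil markers. That sum was itself 27.0-fold, 11.3-fold and 22.4-fold higher in Jersey at D15, D90 and D250, more than the fold of any of the 6 genes on those days. BAX, for example, gave 13.2, 7.71 and 4.83 FPKM for each 100 FPKM in Kashmiri, and 2.08, 1.39 and 0.341 in Jersey. Before this division the median log2 ratio over all names was -0.13, -0.03 and -0.10 at D15, D90 and D250. Most names would thus also read lower in Jersey on the neutrophil scale, and the share of names without overlap was not computed. For each 100 FPKM of summed T and NK cell markers, BCL2 gave 2.55, 0.732 and 1.81 FPKM in Kashmiri, and 2.35, 1.98 and 3.23 FPKM in Jersey. On that scale Jersey was above Kashmiri at D90 and D250, where the marker sum itself was 9.14-fold and 3.71-fold lower in Jersey.

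The genes whose pattern was most like each of the 8 were found among 5801 names, by the Pearson correlation of log2(FPKM + 1) over the 6 groups. With 6 points, high values are easily reached, and nothing is said of shared function. BCL2A1 was most like IL10RA, the interleukin 10 receptor (0.999), FLCN and CHST11. IL10RA was at 15.1, 26.7 and 17.5 FPKM in Kashmiri, and at 45.2, 143 and 177 FPKM in Jersey. FAS was most like GRB2, MKNK1 and ECE1 (0.998 to 0.996), and BCL2L1 most like ADAR, PGS1 and LTBR (0.984 to 0.983). BCL2L11 was most like IL4R, the interleukin 4 receptor (0.995), TNFRSF1B and BANP.

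BCL2 was most like DDX24, SPTAN1 and NASP (0.998 to 0.995), and BAX most like CTSZ, a lysosomal protease (0.992), HOMER3 and SOWAHD. CTSZ was at 123, 278 and 210 FPKM in Kashmiri and 1085, 1000 and 399 FPKM in Jersey, so that, like BAX, it was highest in Jersey at D15. BAK1 was most like RHOT2 (0.997), CRYL1 and RUVBL2, and BAD most like IRF3, PRR5 and PES1, of which PES1 had the lowest correlation at 0.995. Among the 8 genes themselves, the highest correlations were those of BCL2A1 with FAS (0.99) and with BCL2L11 (0.96), and the lowest was that of BCL2 with FAS (-0.90).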

How the data were processed

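RNA from cells captured from the milk of Kashmiri and Jersey cows was sequenced at D15, D90 and D250. After trimming (Trimmomatic) and alignment to UMD3.1, a bovine assembly, by TopHat and Bowtie2, the authors deposited FPKM from Cufflinks and Cuffdiff, with 1 value per gene for each of the 6 groups. Columns headed as local cattle were taken as Kashmiri, the other breed of the labels. The authors' comparison columns (fold changes and p-values) were not used. The depth per library is not contained in these values.

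The table held 61264 entries, of which 25121 carried a name. Joined names were looked up by each part, and where a name recurred its entry of highest mean was taken. The 9 comparisons were the 3 pairs of days in each breed and Jersey over Kashmiri on each day. Single folds are plain ratios, and counts used a pseudocount of 1 FPKM, a minimum of 1 FPKM in 1 or both groups and a log2 ratio of 2 or more in size. No test was made, because there were no values per library. The members, gene lists and comparisons were chosen with earlier results of these data known. By rule, all members, up to 6 list genes past the limit for each comparison and the 3 most similar genes for each member (mean of at least 5 FPKM, at least 1 FPKM in every group) were named. Other genes of the lists (LTBR, TNFRSF21, TNFRSF25, RIPK1, BNIP3L, BMF, BCL2L14, RELA, JUN, BID, FASLG, FADD, CASP8, CFLAR, CASP9, BCL2L2, BIRC5, BIRC6, LIF, OSMR, IGFBP5) were named for their role or to spell out a count, after their values were seen. Alternatives were another pseudocount, 3 other scalings, no minimum, a limit of log2 1, summed entries and other gene sets. The scalings were applied to the pathway lists after the data were seen. The code was tested on simulated data. Gene coordinates and sequences were not used here. Software versions were matplotlib 3.10.9, pandas 2.3.3, numpy 2.4.6 and Python 3.11.15.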

Additional observations from a re-analysis of the deposited data

How the results depend on the processing

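No paired analysis was possible because each group has 1 pooled value and none per library; for the same reason replicates could not be left out in turn. With a limit of log2 1, the genes past it between days numbered 2 (D90 over D15), 1 (D250 over D90) and 1 (D250 over D15) in Kashmiri and 3, 2 and 6 in Jersey, and 5 between the breeds at D90. The share of all names past this lower limit was not computed, so these counts have no background beside them. The 10th to 90th percentile of all names was -1.39 to 1.91 in Jersey at D250 over D15. Between the breeds at D90 it was -1.40 to 1.53. Rescaled to the sum without milk protein genes, 2 genes passed between the breeds at D250, BCL2A1 and FAS, with BCL2L11 at 1.89 and BCL2L1 at 1.37. Calls near the limit were also lost for BCL2L1 at D250 (1.62) and BAX at D15 (1.92) under the upper quartile, and for BAD in Jersey at D250 over D15 (-1.97) under the median ratio. Without BCL2A1, the survival-to-death ratio was 0.200, 0.178 and 0.267 in Kashmiri at D15, D90 and D250, and 0.220, 0.192 and 0.423 in Jersey. With the other BCL2 family genes added, it was 0.284, 0.385 and 0.408 in Kashmiri and 0.550, 1.73 and 2.09 in Jersey. Of 72 log2 ratios of members, 25 moved under the sum scaling, 3 under the upper quartile and 2 under the median ratio, and 9 changed sign in at least 1 setting, none of them with a size of 1 or more. The median over all names between the breeds at D250 was -0.10 as deposited, -0.74 under the sum, -0.52 under the upper quartile and -0.16 under the median ratio. The share of higher among all names past the limit went from 88.9% to 57.0% there under the sum scaling, and from 45.6% to 92.4% in Kashmiri at D250 over D15.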
